A study of Homo sapiens with 8 samples.

Results

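The DNA replication machinery was examined through 45 gene symbols that cover origin recognition, helicase loading and activation, the replicative polymerases, the sliding clamp and its loader, single-strand binding, ligation, nucleotide supply and fork protection. A symbol was taken where the deposited expression table named it at a locus with a mean value of at least 1 over the 8 libraries, and the locus with the highest mean was used. Of the 45 symbols, 41 met this rule, out of 10763 named symbols that did. All 41 also had a mean of at least 5 and were tested among 8600 genes. ORC4, POLA2, RRM1 and FEN1 were not analysed here.

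RNA sequencing was performed on MEL202, a human uveal melanoma cell line with mutant SF3B1, a core component of the spliceosome. There were 4 lines, each with and without Shld, a small ligand that protects a protein fused to a destabilising domain from degradation. Every line and Shld state had 1 library, so no group had replicates. Expression was given as FPKM (fragment numbers corrected for transcript length and for library size) after each library had been rescaled to a 75th percentile of 10 over all loci, and the depth in reads is unknown.

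The parental cells carried no degron in the labels. The mutant degron line (DD-mut-SF3B1) carried the destabilising domain on mutant SF3B1, and the wildtype degron line (DD-wt-SF3B1) carried it on wildtype SF3B1, both labelled as 2 days. The knockout line (mut-SF3B1 KO) had lost the mutant allele and was also labelled as 2 days. The column names of the knockout libraries describe, in addition, the destabilising domain on wildtype SF3B1 and 4 days without Shld. Which description of the knockout line holds could not be settled. A time of 4 days also stands in the name of the parental column that lacks Shld. Each modified line is listed as 1 clone and has no second clone beside it, so a difference between lines and a difference between clones cannot be told apart.

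Before S phase, the origin recognition complex, CDC6 and CDT1 load the MCM2-7 helicase onto DNA. CDC45 and the GINS complex then turn it into the active CMG helicase, polymerase alpha-primase lays down primers, and polymerases delta and epsilon copy the strands while held by the PCNA clamp. In cycling cells many of these genes are transcribed at the G1/S boundary under E2F factors, so their RNA in a bulk culture follows both the share of cells in S phase and the RNA per cell, which cannot be told apart here.

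The melanocyte markers were present in every library, with a summed level between 6442 and 15400. Of the 9 listed symbols 8 were found, all but SILV, an earlier symbol of PMEL, which was found. The summed leukocyte and epithelial markers reached at most 1.22 and 0.736, and the fibroblast markers 29.9, of which nearly all was LUM, while COL1A2 and DCN were at most 0.0417 and 0.273. Levels are given below in rescaled FPKM, first with Shld and then without it, and differences on the log2(value + 1) scale. SF3B1 RNA measured 266 then 239.8 in parental cells, 158 then 138 in knockout cells, 248 then 252 in mutant degron cells and 188 then 201 in wildtype degron cells. A degron acts on the protein, so this RNA does not show whether the protein was lost. Fragments per unit were estimated from the most common ratio of values at loci low in both libraries. This assumes that such loci hold the same few fragments, since no fragment numbers were available. The estimate was 1.45 times that of the parental library with Shld in the knockout library with Shld, and 1.06 times in the knockout library without it. The mutant degron pair had as wide a gap, 1.48 and 1.06. The part of this gap in the results was not tested.

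In the knockout line, RNA of replication genes was lower without than with Shld at most steps of the process. Of the 41 genes, 9 fell and 0 rose by limma at a Benjamini-Hochberg adjusted p below 0.05, where 1.78% of the 8600 genes were called lower and 0.977% higher. Below 0 were 40 of 41 genes, against 49.4% of all genes tested. The median difference was -0.49, against 0.00 over all genes, and 19 of 41 were at -0.5 or lower, against 3.99% of all genes. The spread in this test came from the parental pair alone, and the remaining 6 libraries were taken to be equally variable. The number of calls depended on the processing, with 2 of 41 when genes down to a mean of 1 entered and 5 after quantile normalization. It was 0 with no filter on low values or after removal of a trend with transcript length (added after seeing the data). Over all genes, the lower calls in these settings were 34 of 10520, 54 of 8600, 0 of 15366 and 0 of 8262, against 153 of 8600 in the main fit. The median was -0.47 after quantile normalization and -0.48 after the length correction. A filter changes which genes enter the fit and not a member's difference.

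The letters of an E2F site were frequent upstream of these genes. In RefSeq promoter windows (GRCh38.p14, 250 bases before to 50 after the start), TTTCCCGC, TTTCGCGC, TTTGCCGC or TTTGGCGC on either strand occurred in at least 1 window of 19 of the 35 members that had one, or 54.3%. The share was 3.99% over all 27305 gene symbols with a window and 7.31% over the 6346 tested genes with a window. Among the genes that fell in the knockout line 5 of 8 with a window held the letters, and among the other members 14 of 27. CCAAT on either strand occurred in 65.7% of members, 44.1% of tested genes with a window and 39.7% of all symbols with a window. TTTGAA occurred in 0 of 35 members, 13.8% of tested genes with a window and 18.2% of all symbols with a window. A match is only a run of letters and shows no binding. The 5 windows of genes that fell and held the letters are shown from 200 bases before to 20 after the start, with the matched letters in capitals, followed by ORC5, whose difference had the opposite sign and whose window held none.

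POLA1, chrX:24693718-24693937, plus strand: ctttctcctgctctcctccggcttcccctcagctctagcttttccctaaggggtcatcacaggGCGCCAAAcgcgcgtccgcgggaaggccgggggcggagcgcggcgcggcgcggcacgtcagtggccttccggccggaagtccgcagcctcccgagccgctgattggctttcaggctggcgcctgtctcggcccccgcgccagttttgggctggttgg
POLE2, chr14:49688195-49688414, minus strand: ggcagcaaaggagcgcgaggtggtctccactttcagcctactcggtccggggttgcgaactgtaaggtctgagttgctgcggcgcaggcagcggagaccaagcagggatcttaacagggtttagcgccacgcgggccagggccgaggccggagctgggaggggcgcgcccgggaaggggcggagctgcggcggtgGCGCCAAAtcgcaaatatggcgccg
GINS2, chr16:85688935-85689154, minus strand: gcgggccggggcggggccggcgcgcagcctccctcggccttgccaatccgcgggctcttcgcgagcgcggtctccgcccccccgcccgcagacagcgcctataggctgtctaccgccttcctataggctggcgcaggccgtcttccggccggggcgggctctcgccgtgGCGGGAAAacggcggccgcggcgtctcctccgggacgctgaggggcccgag
CLSPN, chr1:35769959-35770178, minus strand: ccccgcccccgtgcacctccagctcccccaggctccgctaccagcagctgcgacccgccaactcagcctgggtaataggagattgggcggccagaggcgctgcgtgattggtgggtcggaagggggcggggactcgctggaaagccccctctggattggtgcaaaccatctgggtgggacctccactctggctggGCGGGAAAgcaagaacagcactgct
MCM7, chr7:100101378-100101597, minus strand: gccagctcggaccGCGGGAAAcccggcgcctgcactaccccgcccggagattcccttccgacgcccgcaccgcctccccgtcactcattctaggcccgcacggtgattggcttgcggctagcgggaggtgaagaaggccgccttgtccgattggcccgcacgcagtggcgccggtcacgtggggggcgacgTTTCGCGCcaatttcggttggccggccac
ORC5, chr7:104207994-104208213, minus strand: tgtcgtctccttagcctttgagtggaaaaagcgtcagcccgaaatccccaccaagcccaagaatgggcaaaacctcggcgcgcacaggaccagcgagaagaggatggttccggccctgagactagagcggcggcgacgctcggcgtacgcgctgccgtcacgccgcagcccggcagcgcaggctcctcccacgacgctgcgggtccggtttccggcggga

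MCM7 carried 2 matches in its stretch, 1 on each strand, and the other 4 matched genes carried 1 each. MCM7 also had further windows, at other start sites, that held none of the letters. CDC45, RRM2 and RFC2, which also fell, had the letters in none of their windows. CDC45 and RRM2 had more than 1 window each. POLD3, which fell as well, had no window.

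The origin recognition complex, which marks the sites where replication starts, lay nearest to 0 of all roles. Its 5 measured genes had a median difference of -0.08 in the knockout line and none passed the test. ORC5 measured 39.5 then 32.7 in parental cells, 33.99 then 39.8 in knockout cells, 40.1 then 35.8 in mutant degron cells and 23.1 then 31.3 in wildtype degron cells. It was the single member above 0 in the knockout line, at 0.22, and it was also above 0 in the wildtype degron line, at 0.43. ORC1, the subunit whose abundance follows the cell cycle in human cells, was at 14.8 with and 12.1 without Shld in the knockout line, a difference of -0.27. ORC6, which completes the loading-competent complex, measured 53.4 then 43.9 in parental cells, 54.9 then 43.8 in knockout cells, 63.2 then 59.7 in mutant degron cells and 31.9 then 28.5 in wildtype degron cells. Its lowest values were those of the wildtype degron line. ORC2 and ORC3 differed by at most 1 unit between the knockout libraries, at 17.1 then 16.1 and 32.6 then 31.8.

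The licensing factors bring the helicase to the origin. CDT1 measured 45.3 then 46.1 in parental cells, 41.5 then 27.1 in knockout cells, 37.7 then 34.6 in mutant degron cells and 53.7 then 49.6 in wildtype degron cells. Its difference of -0.60 in the knockout line just missed the threshold (limma adjusted p = 0.052). CDC6, the loading ATPase, was at 57.2 with and 39.9 without Shld in the knockout line, against 41.8 and 45.3 in the parental cells.

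The MCM2-7 genes encode the ring that unwinds DNA. MCM7 measured 169 then 190.3 in parental cells, 279.9 then 155 in knockout cells, 201 then 220.2 in mutant degron cells and 222 then 179 in wildtype degron cells. The knockout library with Shld was the highest of the 8 and the one without it the lowest. MCM7 fell by 0.85 on the log2 scale (SE 0.21, limma adjusted p = 0.027) and was the only one of the 6 subunits to pass. All 6 lay between -0.85 and -0.45, and each had an unadjusted p below 0.05. MCM4 was at 217 with and 148 without Shld in the knockout line, against 126 and 142 in the parental cells, so its level without Shld remained above both parental libraries. MCM6 measured 41.5 then 51.1 in parental cells, 73.3 then 53.3 in knockout cells, 59.02 then 56.9 in mutant degron cells and 50.4 then 40.6 in wildtype degron cells, and its knockout level without Shld was also above both parental libraries. MCM2 was at 36.9 then 25.2 in the knockout cells, MCM3 at 219.7 then 154 and MCM5 at 72.9 then 51.7. For all 6 subunits the parental pair went the other way, with differences from 0.15 to 0.29.

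The helicase cofactors CDC45 and GINS2 both fell. CDC45 measured 35.1 then 33.9 in parental cells, 50.05 then 29.4 in knockout cells, 43.96 then 48.7 in mutant degron cells and 29.2 then 21.5 in wildtype degron cells. It fell by 0.75 (SE 0.17, limma adjusted p = 0.015) in the knockout line, from above both parental libraries to below both. GINS2, a subunit of the GINS complex, measured 115 then 88.97 in parental cells, 102 then 57.8 in knockout cells, 118 then 107 in mutant degron cells and 53.8 then 42.1 in wildtype degron cells. It fell by 0.81 (SE 0.19, limma adjusted p = 0.022), and both wildtype degron libraries lay below every other library. GINS4 was the CMG gene nearest to 0 in the knockout line, at 40.03 with and 36.4 without Shld, a difference of -0.13. GINS1 measured 31.4 then 25.7 in parental cells, 33.6 then 21.8 in knockout cells, 34.2 then 34.8 in mutant degron cells and 19.9 then 17.9 in wildtype degron cells, and its knockout difference of -0.60 missed the threshold (limma adjusted p = 0.064). MCM10, which helps to activate the helicase, measured 17.7 then 20.4 in parental cells, 29.99 then 21.9 in knockout cells, 29.1 then 27.3 in mutant degron cells and 20.1 then 19.4 in wildtype degron cells. Both knockout and both mutant degron libraries lay above the parental pair, and its withdrawal differences did not pass. GINS3 was at 23.02 then 15.8 in the knockout cells.

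POLA1, the catalytic subunit of the priming polymerase, showed the lowest difference of the 41 genes. It measured 11.8 then 13.9 in parental cells, 15.8 then 7.62 in knockout cells, 13.3 then 13.6 in mutant degron cells and 16.8 then 11.02 in wildtype degron cells. It fell by 0.96 (SE 0.17, limma adjusted p = 0.0031) in the knockout line, whose library without Shld was the lowest of the 8. In the wildtype degron line its difference was -0.57 (limma adjusted p = 0.49), the lowest of the 41 genes there too. The primase subunits were nearer to 0, with PRIM2 at -0.32 and PRIM1 at -0.13. PRIM2, the large primase subunit, measured 17.5 then 15.5 in parental cells, 23.6 then 18.7 in knockout cells, 22.95 then 22.3 in mutant degron cells and 14.4 then 12.7 in wildtype degron cells, highest in the knockout and mutant degron libraries with Shld. The locus named PRIM1 ranked 98 of 8600 by mean level, between 728 and 1232 per library, and the table held 0 loci named for its neighbour NACA, so its values may include that gene and are uncertain.

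Among the copying polymerases, 2 accessory subunits fell. POLE2, the second subunit of the leading-strand polymerase epsilon, measured 13.1 then 11.7 in parental cells, 14.3 then 6.89 in knockout cells, 13.96 then 11.4 in mutant degron cells and 6.71 then 5.09 in wildtype degron cells. POLD3, a subunit of the lagging-strand polymerase delta, measured 12.8 then 12.8 in parental cells, 15.6 then 8.58 in knockout cells, 13.5 then 14.8 in mutant degron cells and 11.9 then 10.5 in wildtype degron cells. POLE2 fell by 0.96 (SE 0.18, limma adjusted p = 0.0036) and POLD3 by 0.79 (SE 0.17, limma adjusted p = 0.012) in the knockout line. The catalytic subunits POLD1 and POLE were at 43.5 and 44.7 with Shld and 31.4 and 33.4 without. Neither they nor POLD2 passed the test, and the difference between subunits was not tested.

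The clamp loader opens the PCNA ring and places it on primed DNA. RFC2 measured 75.2 then 80.1 in parental cells, 89.4 then 53.98 in knockout cells, 79.7 then 84.2 in mutant degron cells and 69.1 then 54.4 in wildtype degron cells. It fell by 0.72 (SE 0.18, limma adjusted p = 0.027) in the knockout line, where the other 5 clamp and loader genes did not pass. PCNA itself was at 353 with and 274 without Shld there, against 393 and 321 in the parental cells. PCNA overlaps the gene PCNA-AS1, whose highest value was 33.1, in the wildtype degron library without Shld, and whether strand was used in counting is not given in the sources used here, so their reads cannot be told apart. RFC4, another loader subunit, measured 71.2 then 58.2 in parental cells, 67.2 then 51.1 in knockout cells, 62.5 then 64.8 in mutant degron cells and 39.1 then 34.96 in wildtype degron cells, with the wildtype degron libraries lowest. RFC3 and RFC5 were lowest in those libraries too, between 53.7 and 55.2 and between 28.2 and 30.6. RFC1, the large subunit, was at 34.4 then 29.5 in the knockout cells and highest in the wildtype degron cells, at 41.97 then 40.5.

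Replication protein A coats single-stranded DNA. Its 3 genes had a median of -0.23 in the knockout line and none passed the threshold. RPA3, the smallest subunit, measured 52.5 then 36.9 in parental cells, 38.03 then 30.3 in knockout cells, 43.9 then 43.9 in mutant degron cells and 21.1 then 23.1 in wildtype degron cells. Its parental pair differed by more than its knockout pair, and the wildtype degron libraries were lowest. RPA2 was at 53.3 then 52.4 in the knockout cells and at 35.9 then 39.6 in the wildtype degron cells, and RPA1 at 62.2 then 53.03 in the knockout cells.

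Among the genes of ligation, nucleotide supply and fork protection, RRM2 and CLSPN fell. RRM2, the regulated subunit of ribonucleotide reductase, measured 39.3 then 45.3 in parental cells, 66.7 then 36.8 in knockout cells, 63.9 then 63.8 in mutant degron cells and 37.1 then 28.8 in wildtype degron cells. It fell by 0.84 (SE 0.17, limma adjusted p = 0.0095), and the mutant degron line stayed at the knockout line's higher level in both libraries. CLSPN, the claspin adaptor that relays the ATR signal to CHK1, measured 6.55 then 7.75 in parental cells, 10.97 then 6.47 in knockout cells, 9.02 then 8.35 in mutant degron cells and 11.4 then 9.27 in wildtype degron cells. It fell by 0.68 (SE 0.18, limma adjusted p = 0.041) in the knockout line. TYMS, which makes thymidylate, measured 206 then 211 in parental cells, 305 then 211 in knockout cells, 301 then 294 in mutant degron cells and 160.2 then 142 in wildtype degron cells. LIG1, which seals Okazaki fragments, measured 42.96 then 43.3 in parental cells, 43.2 then 28.5 in knockout cells, 42.9 then 44.5 in mutant degron cells and 57.1 then 47.5 in wildtype degron cells. TIPIN, which protects stalled forks with its partner TIMELESS, was at 17.6 then 11.5 in the knockout cells. In the knockout line none of these 3 passed the test, and LIG1 came nearest (difference -0.58, limma adjusted p = 0.063). TYMS overlaps C18orf56 and ENOSF1, whose highest values were 11.2 and 17.5.

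**Figure D1:**
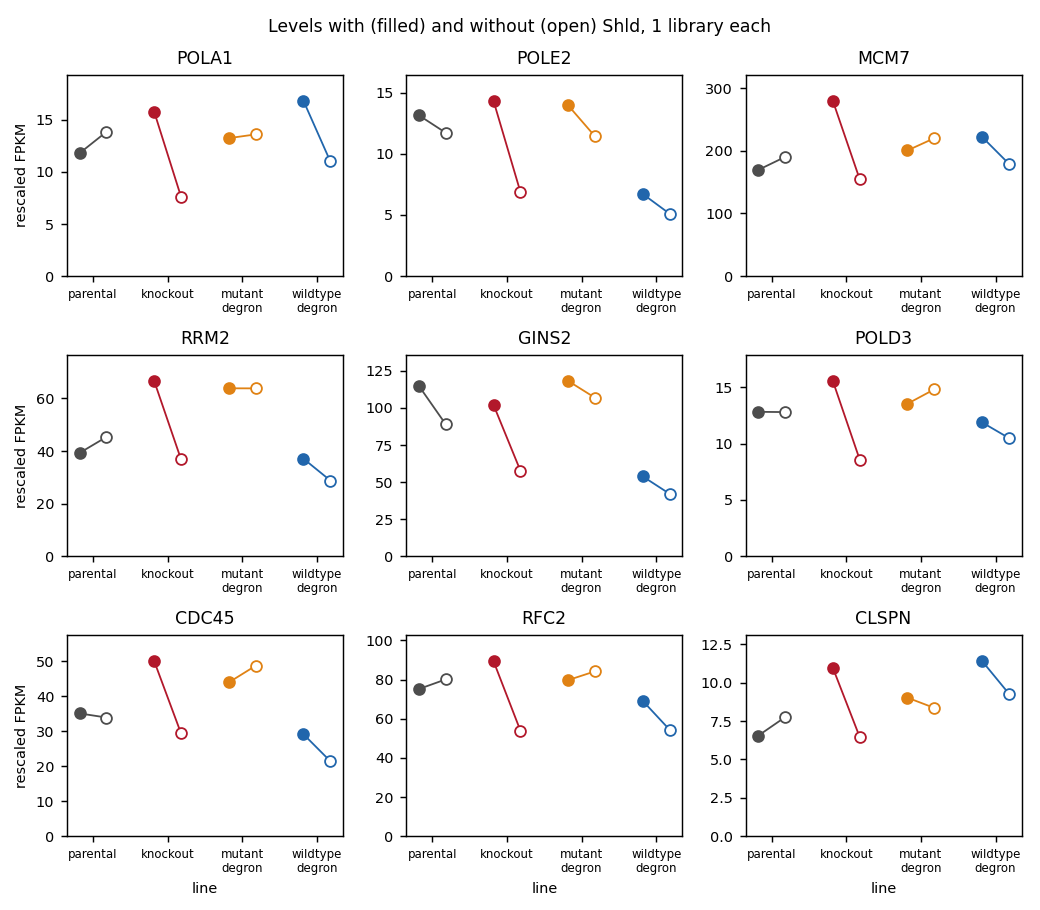
Rescaled FPKM (vertical axes, starting at 0) of the 9 replication genes that fell in the knockout line, for each line with Shld (filled points) and without (open points), 1 library per point and therefore no error bar. POLA1 dropped from 15.8 to 7.62 in the knockout line and stood at 13.3 and 13.6 in the mutant degron line.

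The plot of levels for these 9 genes shows the steepest line in the knockout pair. The genes were chosen for their fall in that pair, so this was largely fixed in advance and is no further evidence. With Shld, 28 of the 41 genes in the knockout line lay above both parental libraries, against 41% of all genes. Without Shld, 31 lay below both, against 46.7% of all genes. From above both to below both went 19 of the 41, against 5.28% of all genes. The knockout library without Shld held the lowest of the 8 values for 15 of the 41 genes, and the one with Shld the highest for 16, against 14.2% and 13.4% of all genes. These counts all use the same knockout pair, so they are not separate evidence.

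In the wildtype degron line, 0 of the 41 genes passed the test after Shld withdrawal by limma, and 4 had an unadjusted p below 0.05. Of all genes, 0.0581% were called lower and 0.0349% higher there. Below 0 lay 33 of 41, against 3968 of 8600 genes, and the median was -0.16. All 6 MCM2-7 genes, both licensing factors and all 5 polymerase delta and epsilon genes lay below 0. The 3 replication protein A genes and 4 of the 5 origin recognition genes lay above 0. CDC45 was at 29.2 with and 21.5 without Shld, a difference of -0.43.

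In the mutant degron line, withdrawal moved no gene of the set past the threshold, and by limma 0 of the 41 had an unadjusted p below 0.05. Of all genes, 0.0116% were called lower and 0.0349% higher. The 41 differences lay between -0.27 and 0.15 with a median of -0.05, and POLE2, at 13.96 with and 11.4 without Shld, was the lowest. The parental pair, which has no test because it gives the spread, had a median of 0.01 and ran from -0.50 for RPA3 to 0.29 for MCM6, with 20 genes below 0. The RPA3 gap arose between libraries of cells whose label names no degron.

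**Figure D2:**
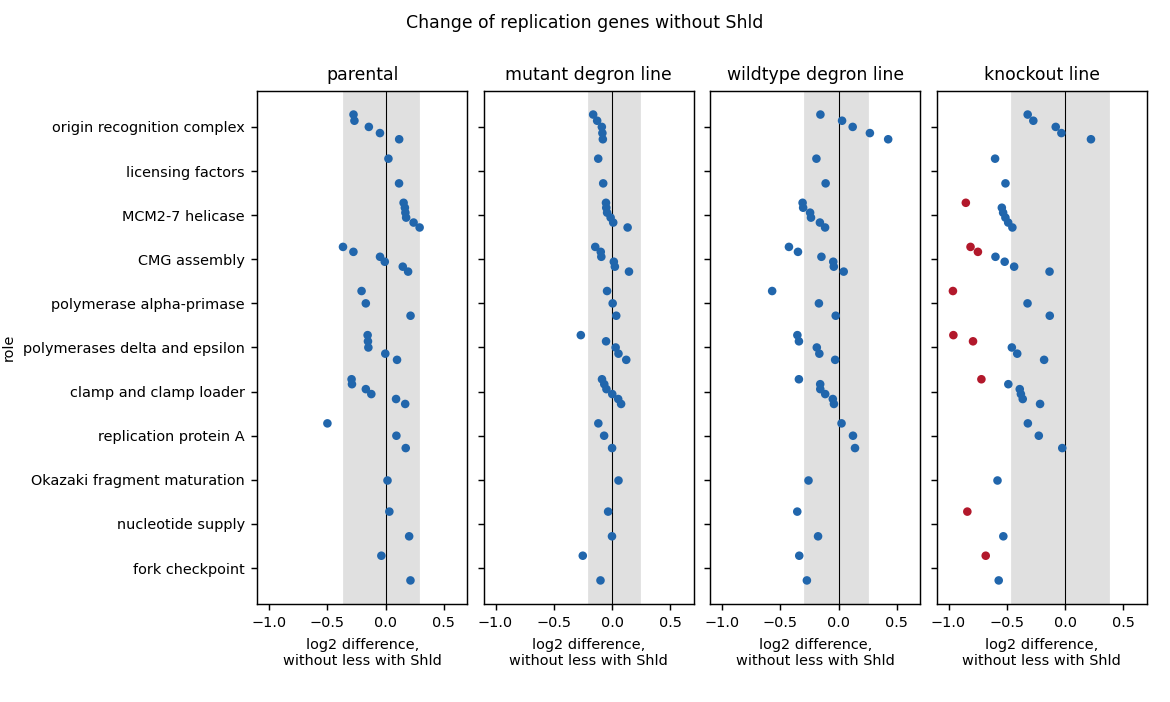
Difference without less with Shld on the log2(value + 1) scale (horizontal axes) for the 41 replication genes, grouped by role, in the 4 lines. Each point is 1 gene, red where the limma adjusted p was below 0.05, and the grey band spans the 5th to 95th percentile of all genes tested; the 9 red points are all in the knockout line.

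The plot by role shows knockout points left of the grey band of all genes, which ran from -0.46 to 0.38, for every role but origin recognition and replication protein A. When the 3 withdrawals were compared with each other, 0 of the 41 genes passed in any pair of lines by limma. Of all genes, 0.279% were called lower in the knockout line less the mutant degron line, 0.0116% in the knockout less the wildtype degron line and 0.198% in the wildtype less the mutant degron line, and 0.174%, 0.0116% and 0.0465% were called higher. The counts of members at an unadjusted p below 0.05 were 13, 3 and 3. The share of all genes at that unadjusted level is not given here, so these counts are not read as results. The medians were -0.44, -0.32 and -0.11, against 0.004, -0.015 and 0.019 over all genes. POLA1 came nearest in the first comparison, at -0.998 (SE 0.25, limma adjusted p = 0.076). The knockout line was thus not shown to differ from the degron lines at any single replication gene. With all 8 libraries in 1 limma fit of Shld, the line as a block (added after seeing the data), 0 of the 41 genes passed, as did 0% of the 8600 genes in either direction. In that limma fit the mean difference over the 4 lines had a median of -0.18 over the members, against 0.006 over all genes. Below 0 lay 38 members, against 4061 of 8600 genes, and 10 had an unadjusted p below 0.05, against 527 of 8600 genes. If the column names hold, the 4 days of the knockout line and the 2 days of the degron lines differ as well.

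Of 61 other genes of the pathway tested, 9 fell and 0 rose in the knockout line without Shld, against 1.78% and 0.977% of all genes. Below 0 lay 54 of the 61, against 49.4% of all genes, and the median was -0.36, against 0.00. TK1, the thymidine kinase of S phase, had a difference of -0.91, DTL, which targets CDT1 for destruction, -0.84, FBXO5, an inhibitor of the anaphase-promoting complex, -0.83, and KIAA0101, a PCNA-binding protein, -0.82. TOP2A, a topoisomerase, was at -0.80, HELLS, a chromatin remodeller, at -0.72, C15orf42, an origin firing factor also called treslin, at -0.69, RNASEH2C at -0.65 and ASF1B, a histone chaperone, at -0.64. All 9 passed the threshold. The 61 genes had medians of -0.08 and -0.04 in the wildtype and mutant degron lines, with 0 past the threshold and 4 and 0 at an unadjusted p below 0.05 by limma.

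CDKN1A, the inhibitor of cyclin-dependent kinases that halts entry into S phase, rose in the same line. It measured 98.9 then 109 in parental cells, 88.9 then 296 in knockout cells, 94.3 then 96.5 in mutant degron cells and 118 then 155 in wildtype degron cells. It rose by 1.73 (SE 0.19, limma adjusted p = 1.5e-05) in the knockout line, and its difference in the wildtype degron line was 0.38 (limma adjusted p = 1.00). MKI67, a marker of cycling cells, was at 31.9 with and 22.4 without Shld in the knockout line, a difference of -0.49 (limma adjusted p = 0.13). Its part in the replication gene values was not tested.

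With Shld present, the lines already differed from parental cells, and in different directions. In the knockout line 11 of the 41 genes were higher and 0 lower by limma, where 13.8% of all genes were called higher and 15.2% lower. MCM4 (log2 difference 0.69), MCM6 (0.66), RRM2 (0.65), MCM7 (0.64) and MCM10 (0.63) led, followed by CLSPN (0.56), TYMS (0.55), CDC45 (0.52), PRIM2 (0.49), MCM2 (0.45) and ORC1 (0.40). The 11 of 41 stood above the background of higher calls and the 0 below that of lower calls. The median was 0.19, and 32 of 41 genes lay above 0. This comparison shares the knockout library with Shld with the withdrawal in that line, and both turn on its values. With no filter on low values, 0 members passed in this or any other comparison between lines, and 0 of 15366 genes did.

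In the mutant degron line 4 of the 41 genes were higher and 0 lower, against 10.1% and 10.6% of all genes, a share near the background for the higher calls. They were MCM10 (0.59), RRM2 (0.59), TYMS (0.53) and PRIM2 (0.45). After the length correction PRIM2 alone of the 41 passed, where 6% of all genes were called higher and 7.41% lower. RRM2 was at 63.9 and TYMS at 301 in this line with Shld, near the 66.7 and 305 of the knockout line. Between the knockout and mutant degron lines with Shld, 0 of the 41 genes passed and 1 had an unadjusted p below 0.05 by limma, where 2.99% of all genes were called higher and 3.9% lower.

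In the wildtype degron line 13 of the 41 genes were lower and 3 higher than in parental cells, against 18.4% and 17.7% of all genes. RPA3 had the lowest difference at -1.03, followed by GINS2 (-0.90), POLE2 (-0.80), RFC4 (-0.70), ORC5 (-0.62), RPA2 (-0.60), ORC6 (-0.59) and PCNA (-0.59). RFC3, GINS1, TIPIN, ORC2 and RFC5 were also lower, between -0.51 and -0.39. CLSPN (0.61), MCM2 (0.42) and LIG1 (0.40) were higher. POLE2 was at 6.71 in this line with Shld against 13.1 and 11.7 in parental cells, while all 6 MCM2-7 genes had differences above 0. Against the knockout line, 19 of the 41 were lower in the wildtype degron line and 0 higher, where 17.9% and 18.7% of all genes were called so. Against the mutant degron line, 19 were lower and CDT1 was higher by 0.50, where 17% and 17.7% were. These 3 comparisons share the wildtype degron library with Shld. MKI67 was higher than in parental cells in the wildtype degron line, by 1.14, in the mutant degron line, by 1.04, and in the knockout line, by 0.53. LUM, the single fibroblast marker with a mean of at least 5, was lower than in parental cells in the same 3 comparisons, with differences of -3.28 in the knockout line, -1.81 in the mutant degron line and -0.89 in the wildtype degron line, and passed the test in each. It measured 29.6 then 20.7 in parental cells, 1.66 then 1.61 in knockout cells, 6.36 then 7.98 in mutant degron cells and 12.9 then 10.8 in wildtype degron cells. Melanocyte markers differed from parental cells as well. DCT (-2.07), S100B (-1.88), TYR (-1.58) and MLANA (-1.50) were lower in the knockout line. In the mutant degron line TYR (-1.27) and MLANA (-0.90) were lower and S100B (0.62) higher, and in the wildtype degron line DCT (0.47) was higher. The other melanocyte markers did not pass in these comparisons. The part of these markers in the baseline values was not tested.

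**Figure D3:**
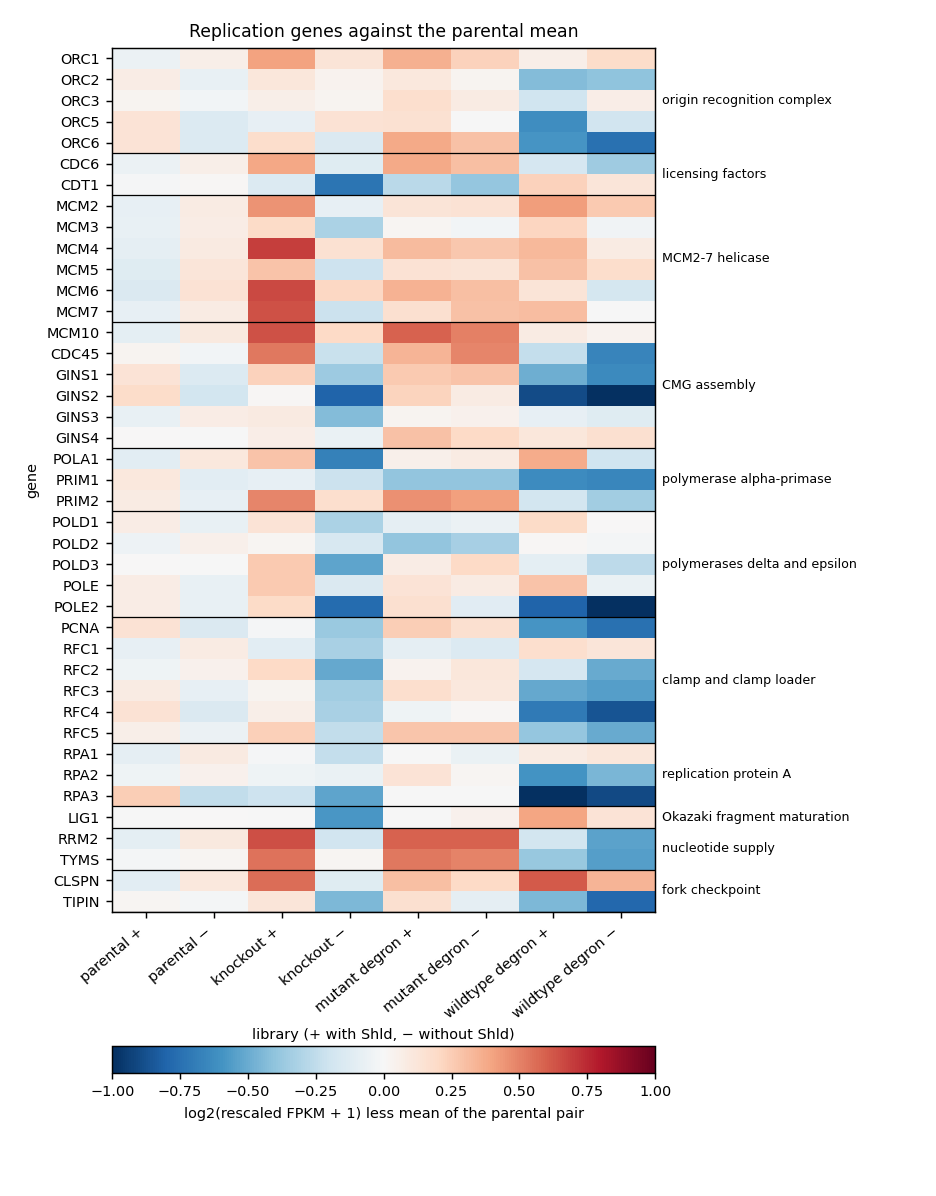
Level of each of the 41 replication genes (rows, grouped by role) in the 8 libraries (columns), as log2(rescaled FPKM + 1) less the mean of the parental pair, with colours cut off at -1 and 1. The knockout column with Shld is mostly red and the one without mostly blue, and the wildtype degron columns are blue for GINS2, POLE2, RPA3 and RFC4.

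The heat map against the parental mean shows both patterns side by side. The baseline differences varied with transcript length, taken as the median over the gene's protein-coding GENCODE transcripts. Across the 41 genes in the wildtype degron line, Spearman's rho was 0.58 between length and difference, against 0.31 over 8262 genes with a length. For the knockout baseline rho was 0.48 over the members and 0.20 over all genes, for the mutant degron baseline 0.29 against 0.23, and between the 2 parental libraries 0.53 against 0.21. These are descriptions across genes of single libraries that share the parental pair, and genes are not replicates. For the withdrawal in the knockout line rho was -0.30 over the members and 0.09 over all genes.

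Split at the members' median length of 1628 bases, the shorter 21 genes had a median of -0.44 in the wildtype degron line, with 11 lower and 0 higher, and the longer 20 a median of 0.12, with 2 lower and 3 higher. In the knockout line 2 of the shorter and 9 of the longer genes were higher. After removal of the length trend over all genes, 8 of the 41 members were lower and 0 higher in the wildtype degron line, where 14.4% and 10.6% of 8262 genes were called so. In the knockout line 9 were higher and 0 lower, against 10.2% and 12.4% of these genes. RPA3, GINS2 and RFC4 were among the shorter genes. The length used is a median over annotated transcripts and may differ from that of the transcript expressed here. RFC1, the large clamp loader subunit, had 725.5 bases by this measure and so stood among the shorter genes. The same caution holds for other members with low lengths, such as ORC2 (546), RFC5 (631), RFC4 (701) and POLD1 (1106.5). Of these, ORC2, RFC5 and RFC4 were among the lower calls in the wildtype degron line. The part of RNA quality in these values was not tested.

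**Figure D4:**
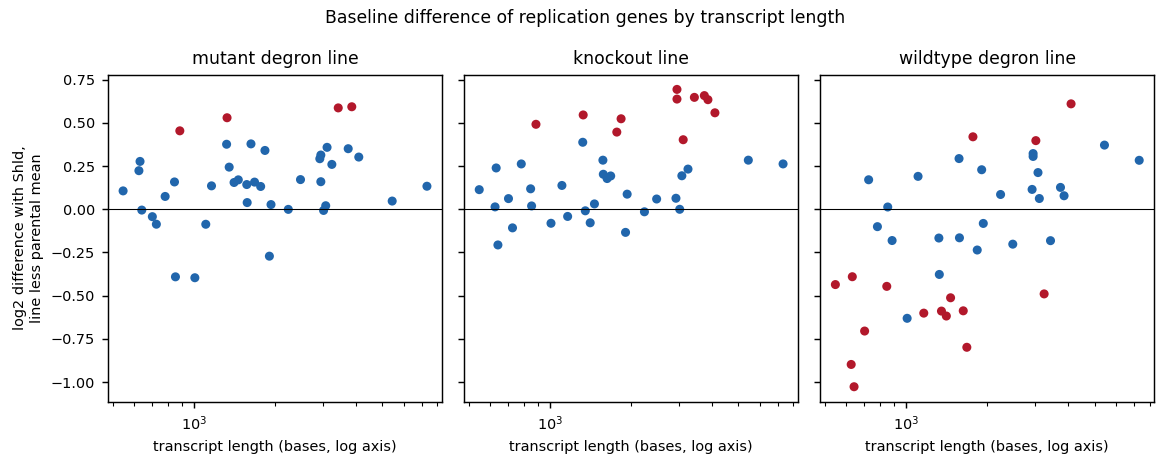
Difference from the parental mean with Shld present, on the log2(value + 1) scale (vertical axis), against transcript length in bases (log axis) for the 41 replication genes in the 3 modified lines. Red points had a limma adjusted p below 0.05; in the wildtype degron line the lower calls lie mostly among the shorter genes.

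RPA3, ORC2, GINS4 and LIG1 each had a further locus in the table that was not used, with means of 18.3, 0.229, 0.0235 and 1.78, so their reads may be split between loci. Without PRIM1, whose locus is uncertain, the medians over the remaining 40 genes were 0.19, -0.13 and 0.16 for the knockout, wildtype degron and mutant degron baselines.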

How the data were processed

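The 8 groups of 1 library each were taken from the labels. The authors deposited 1 table of FPKM-type values per locus, rescaled per library to a 75th percentile of 10; that these were FPKM is an inference, since Cufflinks is named and the values match it. Per the submitters' processing notes, the tools were TopHat and Cufflinks and the build hg19 (versions, annotation and strand were not given in the sources used here). Values are not counts and the absolute depth is unknown. The highest locus per symbol was kept, small RNA genes were left out, and 8600 genes with a mean of at least 5 were tested on log2(value + 1) with limma 3.58.1 (R 4.3.3) and a mean-variance trend. The 2 parental libraries shared a mean (1 residual degree of freedom, prior 23.4), each other library had its own coefficient, and p-values were adjusted over all 8600 genes by the Benjamini-Hochberg method at 0.05. A fold on this scale understates the change of low genes. Separate cultures are not stated, so a p-value reflects only variation among these libraries and may be technical. Genes past the threshold were named, otherwise up to 3 per role with the largest difference, besides any member described as a level. Counts of genes at an unadjusted limma p below 0.05 stand without the share of all genes, except in the fit with the line as a block. Without that share they are not read as results. Alternatives were pseudocounts of 0.1 and 5, the filter on low values, quantile and median scaling, a pooled spread, no trend, libraries left out and, added after seeing the data, a length correction and a fit with the line as a block. The script was tested on simulated data. The members and gene lists were chosen with earlier results of these data known.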

Additional observations from a re-analysis of the deposited data

How the results depend on the processing

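Of 102 recomputed counts of members called, 91 equalled the count reported or stayed within 1.5 times of it, and 11 moved. A count of 0 that remained 0 was taken as unchanged, and direction was not part of this rule. Many of the 91 were of this kind. They came from the withdrawals in both degron lines, every difference between withdrawals and the knockout against the mutant degron baseline. Such counts say little about stability. All 11 that moved came from the comparisons with calls in the main fit. No member called in the main fit changed the sign of its difference in another setting. The 9 members called lower in the knockout withdrawal became 2 with a mean of at least 1, 5 after quantile normalization, 0 with no filter on low values and 0 with the length correction, which was chosen after seeing the data; the other settings gave 6 to 9. Over all genes, the 237 calls of that withdrawal became 56 with a mean of at least 1 and 91 after quantile normalization. They became 0 with no filter, where the prior degrees of freedom dropped to 0.874 from 23.4. With the length correction they also became 0, and the prior degrees of freedom dropped to 6.12. With no filter, 0 members were called against parental in the knockout, wildtype degron and mutant degron baselines, from 11, 16 and 4. The wildtype degron line against the knockout or the mutant degron line also had 0, from 19 and 20. In each of these comparisons 0 of 15366 genes were called. With the length correction the wildtype degron baseline had 8 calls, all lower, where 14.4% of all genes were called lower, the mutant degron baseline 1, where 6% were called higher, and the knockout baseline 9 of its 11, where 10.2% were called higher. Without the parental library lacking Shld the median baseline was 0.12 in the knockout line, from 0.19, and -0.10 in the wildtype degron line, from -0.17. No block by replicate number could be fitted, since the labels number the parental pair alone. Each line has a pair of libraries, and with the line as a block 0 members and 0 of 8600 genes passed for the Shld difference averaged over the 4 lines. The unknown depth limits what a missed threshold shows, and no test here separates clone from line.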
